A study of Mus musculus with 3 samples.

Results

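Matricellular proteins are secreted into the extracellular matrix, where they bind cell surface receptors, growth factors and fibrils and tune how tightly a cell holds on, rather than bearing load themselves. Elastic fibres are built on microfibrils of fibrillin, onto which elastin is laid with the help of fibulins. In skeletal muscle such proteins surround the satellite cell and the growing myofibre, and fibronectin in particular is the matrix on which cultured myoblasts spread and align. The 10 genes described here are Fn1 (fibronectin), the matricellular genes Sparc, Fstl1, Thbs1, Thbs2, Tnc and Postn, and the elastic fibre genes Fbn1, Fbln2 and Eln. They were chosen by symbol, and all 10 were among the 22068 genes listed in each file. Of the 10, 9 had a value above 0, and these 9 also had a mean of at least 1 RPKM (reads scaled to the length of the gene and the depth of the library) over the 3 libraries, as did 10172 genes in all.

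The study asked how Linc-RAM, a long non-coding RNA of skeletal muscle, affects gene expression while C2C12 mouse myoblasts differentiate. Polyadenylated RNA was sequenced from 3 stable C2C12 lines, 1 library each, at 12 h in differentiation medium. The overexpression line carried a lentivirus with Linc-RAM, cloned behind a CMV promoter, the knockdown line carried a U6-driven hairpin that targets Linc-RAM, and the control line carried the empty vector. All 3 lines had been infected and selected with blasticidin. The sources used here do not give which of 2 hairpins the knockdown line carried or whether a line was a single clone. With 1 library per line, no difference below has a replicate check, and values were set only against the counting error of their reads. Differences between lines and effects of Linc-RAM cannot be told apart, and the overexpression and knockdown libraries were both set against the same control library.

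Linc-RAM itself, listed as 2310015B20Rik, had 1.07 RPKM in the overexpression library and was listed at 0 in the knockdown and control libraries, so it leaves the knockdown label unchecked. The depth behind the values, recovered from the steps between low RPKM values, was 2105514 reads for overexpression, 1878146 for knockdown and 5130481 for the control. Markers of myoblasts and early myocytes differed with the groups. Of 8 listed, 7 were measured, all 7 above the control in the overexpression library and 6 of 7 below it in the knockdown library. Summed over the 8 they stood at 559 RPKM with overexpression, 213 RPKM with knockdown and 375 RPKM in the control. Myod1, which defines the myoblast, was at 34.1, 9.76 and 16.7 RPKM in the overexpression, knockdown and control libraries. Of 10 markers of fibroblasts and tenocytes, cells that also make these matrix proteins, 3 were measured, and the 10 together summed to 43.7, 41.9 and 35.2 RPKM in the overexpression, knockdown and control libraries. The tendon factor Scx made most of that, at 35.5, 33.3 and 29.3 RPKM, and the other two measured markers did not follow it. The proteoglycan gene Dcn was at 4.33, 0.766 and 1.12 RPKM in the same libraries, so that it was 3.86-fold above the control with overexpression (1.78 to 8.72). Pdgfra was at 2.68, 6.56 and 3.39 RPKM, 1.94-fold above the control with knockdown (1.44 to 2.59). Thy1, Lum, Tnmd and Tcf21 were listed at 0 in all 3 libraries. Endothelial markers summed to at most 0.248 RPKM in any library and macrophage markers to at most 2.00 RPKM. In such bulk RNA, fewer cells that make a transcript and less of it in each cell cannot be told apart, and the part of differentiation stage or of fibroblast-like cells in the values below was not tested.

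Fn1, Sparc, Fstl1 and Thbs1 were the abundant genes of the group, and Eln was listed at 0. On the RPKM scale, which is per length and so allows genes to be compared, Fn1 ranked 20th of all listed genes in the overexpression library, 27th in the knockdown library and 32nd in the control. Sparc ranked 34th, 23rd and 31st in the same libraries. In the control library Sparc at 479.5 RPKM and Fn1 at 478 RPKM stood level, and with 1 library each the spread of such ranks is not known. Some ribosomal protein genes, among them Rps23, were listed at 0 in all 3 libraries. The ranks are therefore among listed values only and may be too high. Behind them came Thbs1 and Fstl1 between 90.7 and 208 RPKM in any library, Tnc between 39.7 and 79.6 RPKM, and Fbln2, Thbs2, Postn and Fbn1 between 9.95 and 33.1 RPKM. The order of these last 4 was not the same in the 3 libraries. The levels of the 10 genes summed to 1400.4 RPKM with overexpression, 1405 RPKM with knockdown and 1485 RPKM in the control.

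**Figure D1:**
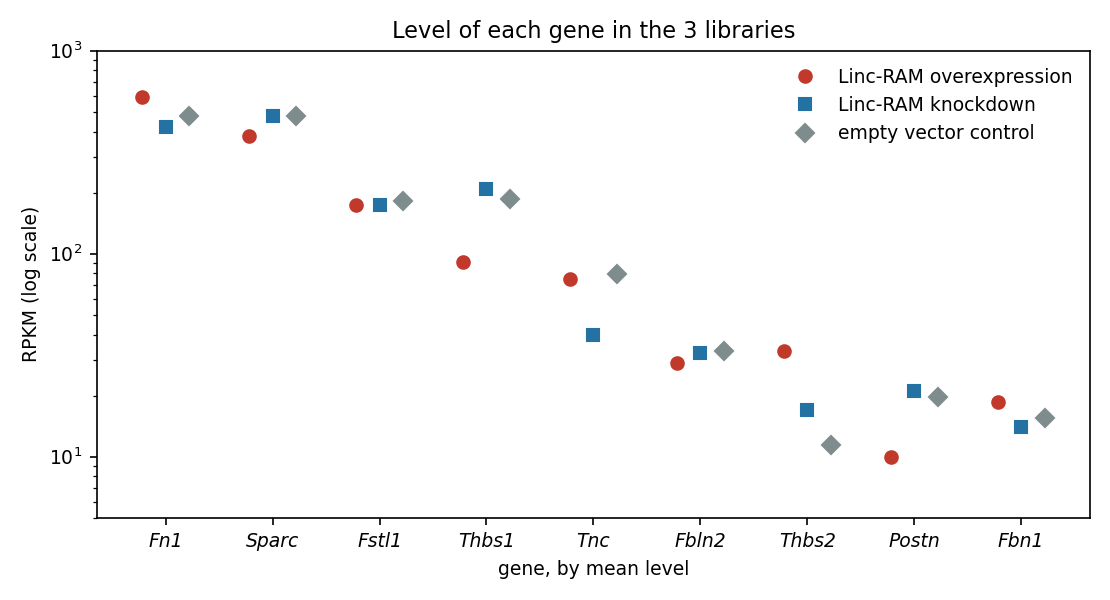
Level in RPKM (log axis) of the 9 genes with a value above 0, ordered by mean level, in the overexpression (red circles), knockdown (blue squares) and control (grey diamonds) libraries, 1 library each. Thbs1 and Postn are lowest in the overexpression library, Tnc is lowest in the knockdown library, Thbs2 is highest with overexpression at 33.1 RPKM, and Fstl1 stays between 174 and 182 RPKM.

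The sequences just upstream of the genes with the widest spread are shown because the myogenic factor MyoD, with which the study is concerned, binds E-boxes. RefSeq promoter windows (GRCm38.p6, 250 bases before to 50 after a transcript start) were matched for 7 of the 10 genes, with 9 entries. Thbs1, Fn1 and Eln are named only. In the 4 windows below, 5′ to 3′ on the gene's strand, capitals mark every E-box, CANNTG, whose letters read the same on both strands. They lie at chr17:14694213-14694512, minus strand (Thbs2), chr3:54360857-54361156, plus strand (Postn, the downstream of 2 entries), chr4:64046887-64047186, minus strand (Tnc, the downstream of 2 overlapping entries), and chr11:55420031-55420330, minus strand (Sparc). Sparc is shown as an abundant gene whose level was the same in the knockdown and control libraries. With overexpression it was at 0.791 of the control.
Thbs2: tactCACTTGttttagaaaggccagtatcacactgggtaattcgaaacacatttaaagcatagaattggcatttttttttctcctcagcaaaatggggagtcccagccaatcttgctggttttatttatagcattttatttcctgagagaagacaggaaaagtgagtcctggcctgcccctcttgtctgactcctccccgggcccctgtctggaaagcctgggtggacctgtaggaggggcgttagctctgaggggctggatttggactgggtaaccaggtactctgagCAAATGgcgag
Postn: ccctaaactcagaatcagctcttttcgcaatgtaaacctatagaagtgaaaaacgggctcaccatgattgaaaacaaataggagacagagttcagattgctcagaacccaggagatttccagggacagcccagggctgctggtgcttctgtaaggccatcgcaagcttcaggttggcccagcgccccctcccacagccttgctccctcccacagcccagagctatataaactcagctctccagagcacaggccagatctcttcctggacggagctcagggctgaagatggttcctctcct
Tnc: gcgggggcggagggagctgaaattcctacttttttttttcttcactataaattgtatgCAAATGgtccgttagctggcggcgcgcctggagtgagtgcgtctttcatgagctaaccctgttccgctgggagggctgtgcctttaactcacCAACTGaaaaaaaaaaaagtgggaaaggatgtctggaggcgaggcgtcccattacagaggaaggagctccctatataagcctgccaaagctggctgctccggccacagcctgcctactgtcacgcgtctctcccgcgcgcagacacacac
Sparc: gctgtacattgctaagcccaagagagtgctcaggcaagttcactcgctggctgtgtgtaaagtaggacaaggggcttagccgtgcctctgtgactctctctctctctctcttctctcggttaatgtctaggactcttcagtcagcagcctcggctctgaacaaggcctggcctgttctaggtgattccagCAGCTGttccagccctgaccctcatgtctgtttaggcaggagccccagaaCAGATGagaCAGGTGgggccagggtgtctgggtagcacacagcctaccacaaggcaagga

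Matches to short stretches of letters were counted in the windows. An E-box occurred 2 times in that of Thbs2, 2 times in that of Tnc, 3 times in that of Sparc and in neither entry of Postn. Those of Fbn1 and Fbln2 held 1 each and that of Fstl1 held none. Of 32851 promoter windows of the same length, 72.3% held at least 1. The form CAGCTG, which is also an E-box, occurred once each in the windows of Sparc and Fbn1, against 16.3% of all windows. TATAAA on either strand was found in the windows of Postn (downstream entry), Tnc and Thbs2, against 13.6% of all windows. The match in Postn began at position −26 from the start. That in Tnc began at −205 in the entry shown and at −126 in the other. In Thbs2 it began at −126, with the letters on the opposite strand. The AP-1 letters TGANTCA were in none of the 9 entries and in 7.81% of all windows. GGGCGG on either strand was in the windows of Tnc, Fbn1, Fbln2 and Fstl1 and in 35.7% of all windows. These are matches of letters in short windows and not measured binding sites.

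With Linc-RAM overexpression, the pair of thrombospondins lay on opposite sides of the control. Thbs2, a trimeric secreted glycoprotein best known as an inhibitor of vessel growth, was 2.90-fold higher, while Thbs1, its close relative and an activator of latent TGF-beta, was at 0.489 of the control. Postn, a fasciclin-domain protein that binds fibronectin, tenascin C and collagen, was at 0.503. Fn1 and Fbn1 were 1.24-fold and 1.20-fold higher, and Sparc was at 0.791. By the 2-fold criterion of the study's methods, 1 of the 9 genes was higher and 1 was lower. Of the 10165 genes compared, 3.64% reached 2-fold upward and 3.47% reached it downward. At a mean of at least 10 RPKM, which all 9 genes have, these shares were 1.34% and 0.973% of 3288 genes. The median log2 ratio of the 9 genes was −0.09, against 0.0048 over all genes compared, with 3 of them above the control and 6 below.

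Thbs2 (chromosome 17, 14802507 to 14831269 on the mm9 build, minus strand) stood at 33.1 RPKM in the overexpression library and 11.4 RPKM in the control, from 413 and 347 reads. The overexpression library had more Thbs2 reads although its total was 41.0% of that of the control. The ratio of 2.90 had a 95% interval of 2.51 to 3.35, which like all intervals here comes from the reads alone and covers counting error only. Of the genes at a mean of at least 10 RPKM, 0.487% had a larger ratio.

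Thbs1 (chromosome 2, 117937612 to 117952869, plus strand) was at 90.7 RPKM in the overexpression library, against 186 RPKM in the control. Its ratio of 0.489 (0.445 to 0.535) was undercut by 0.882% of the genes at a mean of at least 10 RPKM. The RPKM of Thbs1 was thus 2.74 times that of Thbs2 in the overexpression library, against 16.3 times in the control. The reads of Thbs1, 554 and 2763, are a lower estimate, since the length at which they came out whole, 2901 nt, is well short of the longest annotated transcript of 5848 nt.

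Postn (chromosome 3, 54165031 to 54194961, plus strand) was at 9.95 RPKM with overexpression and 19.8 RPKM in the control, from 69 and 334 reads. The ratio of 0.503 (0.383 to 0.654) was just short of 2-fold, and it met the criterion when libraries were scaled to their upper quartile, with a log2 ratio of −1.02. At 1.5-fold, where Thbs1 and Postn were the genes lower than the control, the share of all genes was 9.52%. Tnc, which encodes tenascin C, a partner of periostin in the matrix, was by contrast near the control, at 74.7 RPKM with overexpression against 79.6 RPKM (0.939, 0.875 to 1.01).

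Fn1, Sparc and Fstl1 were closer to the control than the thrombospondins and Postn. Fn1 (chromosome 1, 71632094 to 71699774, minus strand) was at 591 RPKM with overexpression and 478 RPKM in the control, from 10335 and 20390 reads, a ratio of 1.24 (1.21 to 1.26). At that depth the counting interval is narrow, and 17.1% of genes at a mean of at least 10 RPKM had a larger ratio. Sparc (chromosome 11, 55208002 to 55233582, minus strand), a collagen-binding glycoprotein also called osteonectin, was at 379 RPKM against 479.5 RPKM in the control, a ratio of 0.791 (0.75 to 0.834). Fstl1 (chromosome 16, 37776959 to 37836600, plus strand), a secreted glycoprotein related to Sparc by its follistatin-like domain, was at 174.5 RPKM with overexpression and 182 RPKM in the control. Its ratio of 0.960 had an interval that included 1 (0.90 to 1.023), so a difference was not detectable at this depth.

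The elastic fibre genes stayed near the control as well. Fbn1 (chromosome 2, 125126330 to 125333729, minus strand), the fibrillin of microfibrils, was at 18.7 RPKM with overexpression, against 15.5 RPKM in the control (1.20, 1.06 to 1.36). Fbln2 (chromosome 6, 91162449 to 91222534, plus strand), a fibulin that binds fibrillin and fibronectin, was at 29.0 RPKM against 33.1 RPKM, and its ratio of 0.875 was within counting error of 1 (0.759 to 1.01). Eln (chromosome 5, 135179651 to 135223111, minus strand), the precursor of elastin, was listed at 0 in all 3 libraries. Ribosomal protein genes that every cell uses, among them Rps23, Rps29 and Rpl26, were listed at 0 in all 3 as well, so a listed 0 does not show that Eln was silent.

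**Figure D2:**
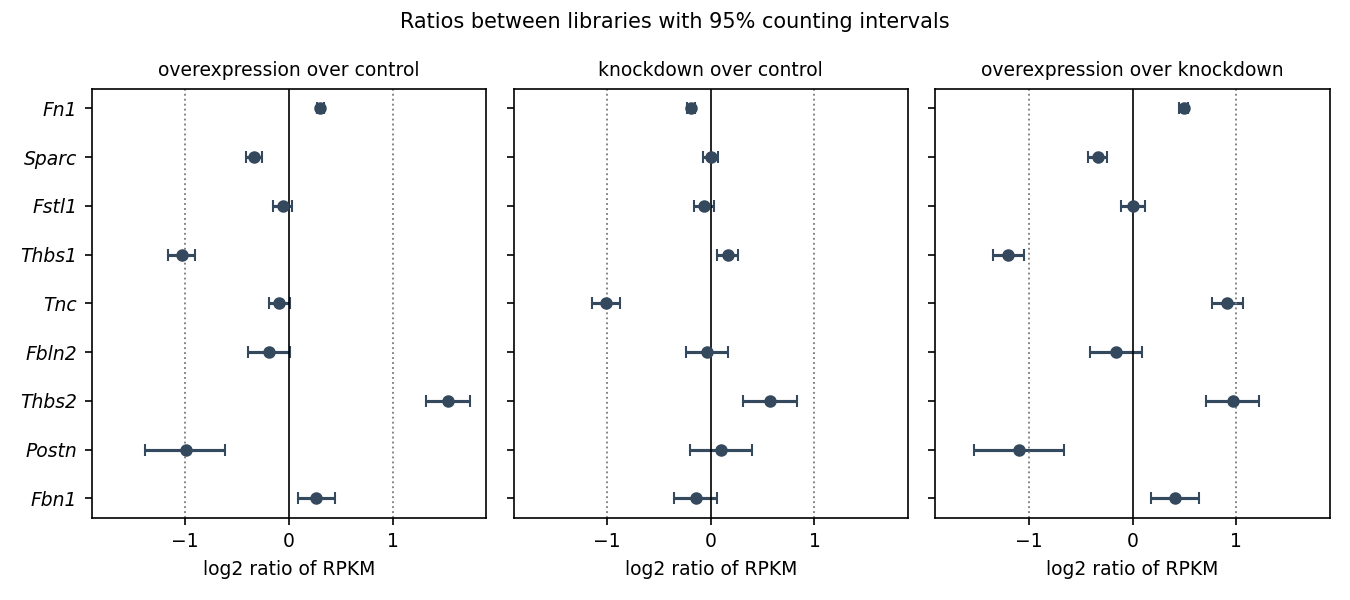
Log2 ratio of RPKM (x axis) for the 9 genes (y axis, by mean level) with overexpression over control, knockdown over control and overexpression over knockdown. Points are single ratios of 1 library over another, bars are 95% exact intervals for counting error only, and dotted lines mark 2-fold. Thbs2 lies to the right and Thbs1 and Postn to the left with overexpression, and Tnc is the gene at the left-hand 2-fold line with knockdown.

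With Linc-RAM knockdown, tenascin C was the gene of the 9 that lay furthest from the control. Tnc (chromosome 4, 63620819 to 63681760, minus strand), a hexameric matricellular protein of tendon and regenerating muscle, was at 39.7 RPKM in the knockdown library and 79.6 RPKM in the control, from 529 and 2899 reads. Its ratio was 0.498 (0.453 to 0.547), and 1.31% of genes at a mean of at least 10 RPKM had a smaller ratio. It lay at the edge of the 2-fold criterion and no longer met it with 1 RPKM added or under either scaling, where its log2 ratio lay between −0.98 and −0.99 instead of −1.004. By the criterion 1 of the 9 genes was lower and none was higher. Of the 10165 genes compared, 3.38% reached 2-fold upward and 4.19% reached it downward, and at a mean of at least 10 RPKM the shares were 0.73% and 1.46%. The median log2 ratio of the 9 genes was −0.03, against −0.014 over all genes compared, with 3 above the control and 6 below.

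Both thrombospondins were above the control in the knockdown library. Thbs2 was at 17.0 RPKM, against 11.4 RPKM in the control, a ratio of 1.49 (1.24 to 1.78) from 189 and 347 reads. Of genes at a mean of at least 10 RPKM, 3.74% had a larger ratio. Thbs1 was at 208 RPKM, against 186 RPKM in the control, a ratio of 1.12 (1.04 to 1.20). Postn was at 21.2 RPKM with knockdown and 19.8 RPKM in the control (1.07, 0.869 to 1.32), with an interval that included 1.

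The remaining genes differed little between knockdown and control. Fn1 was at 419.9 RPKM with knockdown and 478 RPKM in the control, a ratio of 0.878 (0.854 to 0.903), and 34.9% of genes at a mean of at least 10 RPKM had a smaller ratio. Sparc was at 479.4 RPKM in the knockdown library and 479.5 RPKM in the control, a ratio of 0.9997 (0.95 to 1.05). Fstl1 was at 173.6 RPKM with knockdown and 182 RPKM in the control (0.955, 0.893 to 1.021). Fbln2 was at 32.3 RPKM against 33.1 RPKM in the control (0.978, 0.848 to 1.12), and Fbn1 was at 14.0 RPKM against 15.5 RPKM (0.904, 0.783 to 1.04). The intervals of all 3 of these elastic fibre and Sparc-related genes included 1.

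**Figure D3:**
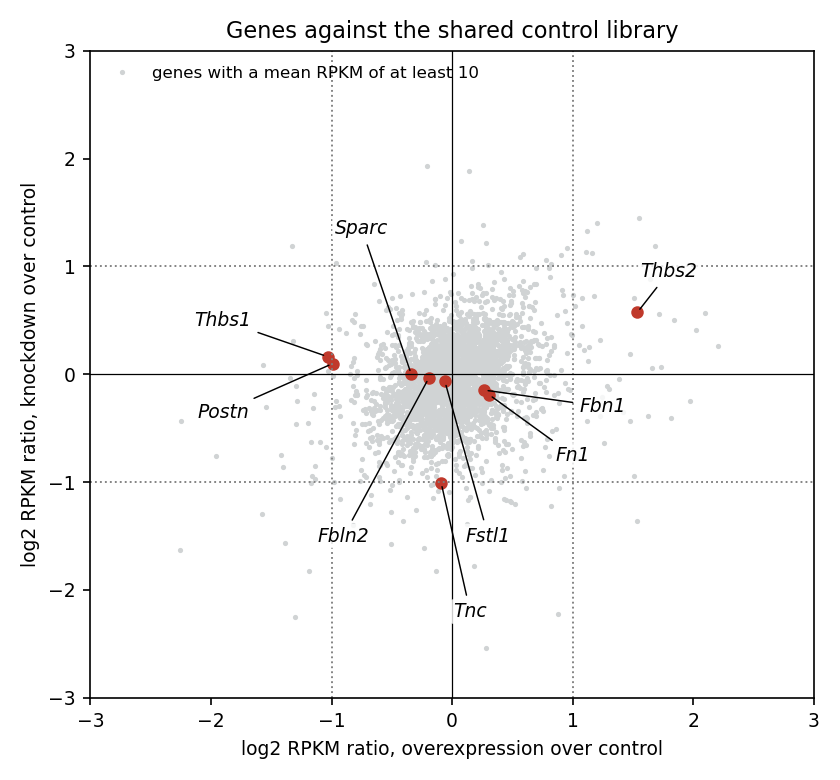
Log2 RPKM ratio to the control with overexpression (x axis) and with knockdown (y axis). Grey points are 3285 genes with a mean of at least 10 RPKM, with 3 more beyond the axes, red points are the 9 genes, and dotted lines mark 2-fold. Both axes share the control library, so a shared tilt of the points is no result. Thbs1 and Postn lie far to the left at knockdown ratios near 1, Thbs2 lies to the upper right, and Tnc lies low at an overexpression ratio near 1.

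The direct comparison of overexpression with knockdown needs no control library. Thbs1 and Postn lay past 2-fold in it, and Thbs2 and Tnc fell short of 2-fold. Thbs1 was at 90.7 RPKM with overexpression and 208 RPKM with knockdown, a ratio of 0.436 (0.393 to 0.483). Postn was at 9.95 RPKM against 21.2 RPKM with knockdown, a ratio of 0.470 (0.346 to 0.634). Thbs2 was at 33.1 RPKM with overexpression and 17.0 RPKM with knockdown, a ratio of 1.95 (1.64 to 2.33). Tnc was at 74.7 RPKM against 39.7 RPKM with knockdown, a ratio of 1.88 (1.70 to 2.09). By the 2-fold criterion 2 genes were lower, Thbs1 and Postn, and none was higher, while 5.83% of 10146 genes reached 2-fold upward and 5.11% reached it downward. At a mean of at least 10 RPKM the shares were 3.1% and 1.31%. At 1.5-fold Thbs2 and Tnc counted as higher, as did 14.3% of all genes.

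Among the rest, Fn1 and Fbn1 were above knockdown and Sparc was below it. The ratio of Fn1 was 1.41 (1.36 to 1.45), and 13.6% of genes at a mean of at least 10 RPKM had a larger one. That of Fbn1 was 1.33 (1.13 to 1.56) and that of Sparc was 0.791 (0.743 to 0.843). Fn1 was the more abundant of the pair with Sparc in the overexpression library, at 1.56 times its RPKM, and the less abundant in the knockdown library, at 0.876 times. Fstl1 had the narrowest range of the 9 genes, its highest library being 1.05 times its lowest, and the ratio between overexpression and knockdown was 1.005 (0.928 to 1.09). Fbln2 was at 0.895 (0.754 to 1.06). The median log2 ratio of the 9 genes was 0.0071, against 0.025 over all genes, and its sign turned under both scalings.

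Related genes of the matrix were counted from lists written by function. Over all genes compared, 3.64% reached 2-fold upward and 3.47% downward with overexpression, and 3.38% and 4.19% with knockdown. Counts of 0 or 1 in lists this short cannot be told apart from these shares. Of 24 other matricellular genes 9 were measured, that is, had a mean of at least 1 RPKM. With overexpression none of these was at least 2-fold higher and 1 was lower, Smoc2, a modular calcium-binding relative of Sparc, at 5.2 RPKM against 12.9 RPKM in the control (0.402, 0.265 to 0.590). With knockdown 1 was higher, the proteoglycan gene Spock2 at 13.6 RPKM against 3.49 RPKM (3.90, 2.85 to 5.37), and 1 was lower, the connective tissue growth factor gene Ctgf at 4.65 RPKM against 21.7 RPKM (0.214, 0.130 to 0.334). Ctgf was at 39.9 RPKM with overexpression (1.84, 1.52 to 2.21). The median log2 ratios of the list were −0.57 with overexpression and −0.52 with knockdown. Spp1, which encodes osteopontin and had the highest mean level of the list, stood at 451, 208 and 326 RPKM in the overexpression, knockdown and control libraries. Wisp1 was at 36.5, 71.5 and 72.4 RPKM in the same libraries.

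Of 19 further genes of elastic fibres and microfibrils 14 were measured. With overexpression none was at least 2-fold higher and 1 was lower, beside 3.64% and 3.47% of all genes. The median log2 ratio was −0.34, with 11 of 14 below the control. With knockdown 1 was higher and 1 was lower, beside 3.38% and 4.19% of all genes, and the median was −0.05. Lox, the lysyl oxidase that crosslinks elastin and collagen, was below the control in both, at 119 RPKM with overexpression and 102 RPKM with knockdown against 227 RPKM in the control, with ratios of 0.524 (0.487 to 0.563) and 0.449 (0.414 to 0.487). Emilin1, a glycoprotein found where elastin meets the microfibrils, was at 4.66, 10.6 and 5.23 RPKM in the overexpression, knockdown and control libraries, so that it was 2.03-fold above the control with knockdown (1.46 to 2.80). Emilin2 was at 10.1, 12.3 and 16.9 RPKM. The gene that was lower with overexpression, Mfap5, named after its values were seen, had few reads, at 0.674 RPKM against 1.797 RPKM in the control, with an interval of the ratio that included 1.

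Of 19 receptors of matricellular proteins and fibronectin 11 were measured, and none was 2-fold from the control in either comparison, with median log2 ratios of −0.16 and 0.03. Between 3.38% and 4.19% of all genes reached 2-fold per side and comparison, so none of 11 is no result about the receptors. Itga5, the alpha subunit of the main fibronectin receptor, was at 20.2 RPKM with overexpression and 18.5 RPKM with knockdown, against 27.8 RPKM in the control. Itgb5, a vitronectin receptor subunit, was at 28.2 RPKM with overexpression and 30.01 RPKM with knockdown, against 45.3 RPKM. The syndecan Sdc2, which had the highest mean level of the receptors listed, was at 77.7 RPKM with overexpression, 94.0 RPKM with knockdown and 86.9 RPKM in the control. In the overexpression library the integrin gene Itgb1 stood above it, at 80.5 RPKM. The syndecan Sdc3 was at 24.9, 41.3 and 37.7 RPKM in the same libraries. Cd36, a receptor of thrombospondins, was listed at 0 in all 3 libraries.

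**Figure D4:**
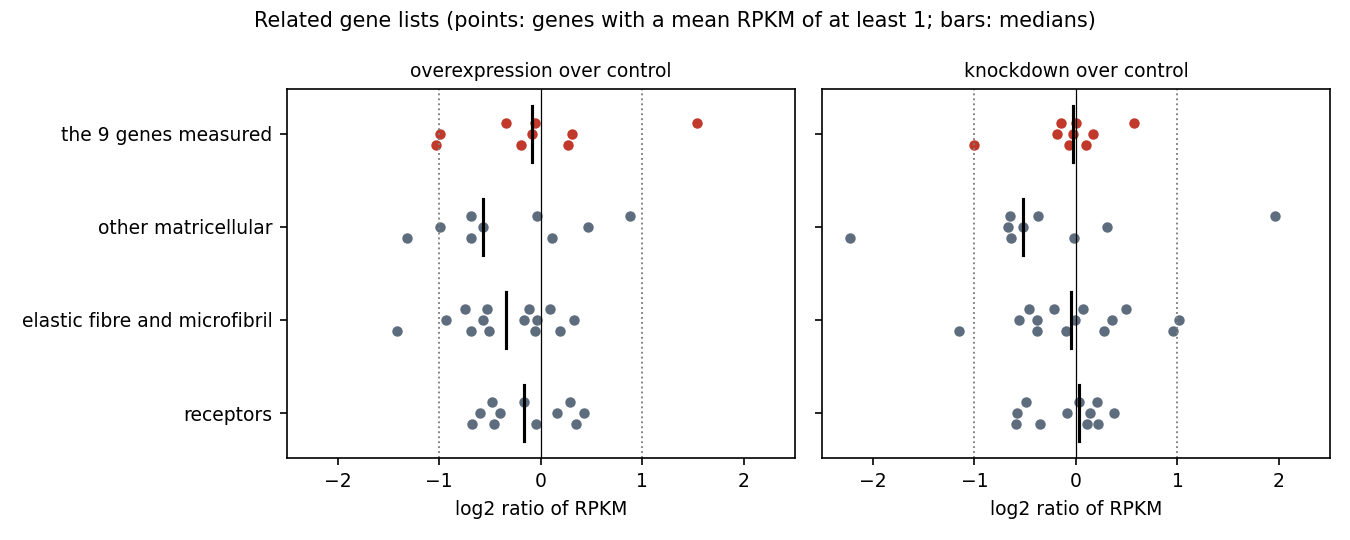
Log2 RPKM ratio to the control (x axis) with overexpression and with knockdown for the 9 genes (red) and for genes of the 3 related lists with a mean of at least 1 RPKM (grey). Black bars are medians and dotted lines mark 2-fold. In the left panel the bars of the other matricellular genes and of the elastic fibre genes lie at −0.57 and −0.34, and in the right panel Ctgf and Spock2 are the outermost points.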

How the data were processed

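The RPKM values were computed by the authors with DEGSeq after TopHat alignment to mm9 (TopHat 1.4.1 per the submitters' processing notes), with each library deposited separately. Which annotation was used, and how strand and multiply mapped reads were handled, is not given in the sources used here. Ratios of the deposited RPKM, with no pseudocount, were called at 2-fold where the mean over the libraries was 1 RPKM or more. The set of genes at a mean RPKM of at least 10 and the shares at 1.5-fold were chosen after seeing the data. The members and lists were chosen with earlier results of these data known.

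Read totals were those at which RPKM times the annotated length gave whole reads. Of genes with 1 annotated length and under 30 reads, 71.9%, 71.8% and 69.8% were whole within 0.05 reads in the overexpression, knockdown and control libraries. Reads per gene came from the smallest length from 200 nt that gave whole reads in all 3 libraries, a lower estimate, so intervals (Clopper-Pearson, 95%) are if anything too wide. The steps were tested on simulated data. Genes named from the lists have a mean RPKM of at least 5 and the 2 widest ratios to the control per list and comparison, or have the highest mean level. Mfap5, Itgb1, Dcn, Pdgfra, Myf5, Vgll2 and the list genes given as listed at 0 fall outside this rule and were named after their values were seen. Gene positions are from GENCODE on NCBIM37, the assembly that mm9 names. Promoters are on another build. Alternatives were other filters, added constants, scalings, 1.5-fold, and a binomial test on reads. The paper's heatmap of affected genes gives another cutoff than its methods, at least 1.5-fold with P of at most 0.005. That combination was not applied here. Tools were scipy 1.17.1, matplotlib 3.10.9, pandas 2.3.3 and numpy 2.4.6 under Python 3.11.15.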

Additional observations from a re-analysis of the deposited data

How the results depend on the processing

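Each filter, added constant and scaling moved the log2 ratio of any of the 9 genes by at most 0.078. The number of genes at least 2-fold lower with overexpression was 2 instead of 1 under upper quartile scaling and at 1.5-fold, with Postn added to Thbs1 (9.52% of all genes at 1.5-fold). With knockdown it was 0 instead of 1 with 1 RPKM added, with ratios divided by their median and under upper quartile scaling, since Tnc stood at the limit. At 1.5-fold, 2 genes instead of 0 were higher with overexpression than with knockdown, Thbs2 and Tnc, beside 14.3% of all genes. Upper quartile scaling put the log2 ratio of Fn1 between overexpression and knockdown at 0.44, against 0.49 as deposited. That value lay outside the counting interval of the Fn1 ratio, the 1 case among 162 recomputed log2 ratios. The near-zero log2 ratios of Sparc with knockdown and of Fstl1 between overexpression and knockdown changed sign under both scalings, as did the median of the 9 genes between overexpression and knockdown (−0.02 and −0.05). No paired analysis was possible because each group has 1 library. Depth limits Postn most, with 69 reads in the overexpression library.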

Other observations

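Genes of the TGF-beta pathway, which thrombospondin 1, fibrillin and the latent TGF-beta binding proteins feed into, were counted as the other lists were. Of 14 listed genes 13 were measured, and none was at least 2-fold higher or lower in either comparison with the control, with median log2 ratios of −0.23 with overexpression and 0.10 with knockdown. Over all genes compared, 3.64% reached 2-fold upward and 3.47% downward with overexpression, and 3.38% and 4.19% with knockdown. Beside such shares, none of 13 is no result about the pathway. Tgfb2, a ligand, was at 2.51 RPKM with overexpression and 9.69 RPKM with knockdown, against 4.87 RPKM in the control, with ratios of 0.516 (0.321 to 0.80) and 1.99 (1.49 to 2.65). Its direct ratio of overexpression to knockdown was 0.259 (0.159 to 0.409), and it was the gene of this list that passed 2-fold there. Of the 10146 genes compared, 5.11% were at least 2-fold lower in that comparison, so 1 of 13 is no result about the pathway. Ltbp1, a latent TGF-beta binding protein of the microfibril, was at 7.54 RPKM with overexpression, 13.7 RPKM with knockdown and 7.07 RPKM in the control, with ratios of 1.07 (0.844 to 1.34) and 1.94 (1.59 to 2.36). The receptor gene Tgfbr2 had the highest mean level of the list, at 29.1, 43.3 and 35.0 RPKM in the overexpression, knockdown and control libraries. Tgfb1 was at 20.4, 27.0 and 29.2 RPKM in the same libraries. These values compare 3 libraries and have no replicate check. In the follistatin family, to which Fstl1 is related, Fstl3 was the gene measured of 4 listed, at 1.95 RPKM with overexpression, 1.36 RPKM with knockdown and 1.20 RPKM in the control, and at this depth no difference was detectable.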
